A study of Mus musculus with 16 samples.

Results

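Transcripts of the 9 subunits of the mouse cohesin complex were followed in testis after conditional loss of Ythdc2. The genes were taken by symbol, with earlier results of these data known, and each matched 1 row of every deposited table. They are 9 of 55414 genes. Rec8, Rad21l, Stag3 and Smc1b encode the 4 meiosis-specific subunits. Rad21, Stag1, Stag2, Smc1a and Smc3 encode the 5 general subunits. All 9 passed the filter on low values in every comparison.

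Cohesin is a ring of an SMC1 protein, an SMC3 protein and a kleisin that clasps sister chromatids, with an SA (stromal antigen, STAG) protein bound to the kleisin. Dividing cells use RAD21 as kleisin, STAG1 or STAG2 as SA protein and SMC1A. Spermatocytes add the kleisins REC8 and RAD21L, the SA protein STAG3 and SMC1B, and these rings form the chromosome axis on which homologous chromosomes pair, recombine and synapse, while SMC3 serves both kinds of ring.

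The series holds 16 RNA-seq libraries of whole mouse testis, collected at postnatal day 14 (P14) or 16 (P16), when the first wave of germ cells passes through meiotic prophase. The mice carried 1 of 3 genotypes, labelled control, Cre control or conditional knockout of Ythdc2 (cKO), and mice of all groups had received tamoxifen, 10 mg per ml, on P12 and P13. Ythdc2 encodes an RNA helicase that binds methylated RNA, and tamoxifen switches on an inducible Cre recombinase that deletes the target gene. There were 2 control, 2 Cre control and 3 cKO libraries at P14 and 2 control, 4 Cre control and 3 cKO libraries at P16. The sample descriptions name the control data WT. The labels do not name the Cre transgene, the cells in which it acts, the alleles of either control type, or whether a library came from 1 animal or several. Controls and cKO libraries 1 and 2 of a stage had their ribosomal RNA depleted with Ribo-Zero, called the first kit here. Cre controls and cKO library 3 had it depleted with the NEBNext version 2 kit, called the second kit. Within the second kit, the column names place Cre control P16 libraries 2 to 4 in another sequencing run than the remaining libraries. The same cKO libraries 1 and 2 were set against both control types, so the comparisons with control and with Cre control at a stage share them.

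Reads on genes numbered 22220565 to 27531529 in the 8 first-kit libraries and 14494867 to 23200252 in the 8 second-kit libraries, and each cohesin gene held at least 258 reads in every library. Ythdc2 itself stood at 32.9% of the control mean at P14 and at 19.8% at P16 in cKO, with every cKO library below every control. All 7 spermatogonial markers, all 7 early meiotic prophase markers and all 7 Sertoli cell markers examined had reads in every library, while Prm2, a protamine gene of late spermatids, had 0 reads in all 16. Nothing in the labels says that replicates are separate animals, so p-values measure the spread between these libraries, which may be technical. In whole-testis RNA, fewer cells of a type and less RNA per cell cannot be told apart.

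The promoters of the 4 meiosis-specific genes and of Smc3 are shown because these 5 genes had the largest differences between cKO and first-kit controls at P16. RefSeq windows from 250 bases before to 50 bases after the start site (build GRCm38.p6, which is not the GRCm39 build named in the submitters' processing notes) were given for 7 of the 9 genes. Not among them were Rad21 and Stag2. Sequences run 5′ to 3′ on the strand of the gene. Capitals mark exact matches, on either strand, to the E2F core GCGGGA or its longer form GCGGGAAA, which contains the shorter one, to the E-box CACGTG, or to CNCCTCAG, the motif of the meiotic initiator STRA8.
Rec8 (chr14:55617916-55618215, plus strand): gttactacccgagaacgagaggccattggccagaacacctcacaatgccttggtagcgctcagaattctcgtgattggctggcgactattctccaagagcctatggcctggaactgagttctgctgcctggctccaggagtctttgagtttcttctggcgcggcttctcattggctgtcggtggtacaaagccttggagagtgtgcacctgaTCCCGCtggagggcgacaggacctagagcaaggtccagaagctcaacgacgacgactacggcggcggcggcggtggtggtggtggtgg
Rad21l (chr2:151668484-151668783, minus strand): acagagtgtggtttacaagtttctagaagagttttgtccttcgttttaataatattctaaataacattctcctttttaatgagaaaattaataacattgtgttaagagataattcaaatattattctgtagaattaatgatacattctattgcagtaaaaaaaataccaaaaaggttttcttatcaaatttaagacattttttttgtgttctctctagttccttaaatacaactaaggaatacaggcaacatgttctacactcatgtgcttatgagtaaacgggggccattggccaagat
Stag3 (chr5:138280259-138280558, plus strand): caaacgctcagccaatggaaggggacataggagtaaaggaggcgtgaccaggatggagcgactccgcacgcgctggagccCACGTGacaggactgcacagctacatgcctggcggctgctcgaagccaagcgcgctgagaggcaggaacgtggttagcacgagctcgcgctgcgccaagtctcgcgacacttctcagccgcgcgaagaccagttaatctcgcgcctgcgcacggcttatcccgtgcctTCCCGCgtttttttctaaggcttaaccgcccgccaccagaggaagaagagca
Smc1b (chr15:85131908-85132207, minus strand): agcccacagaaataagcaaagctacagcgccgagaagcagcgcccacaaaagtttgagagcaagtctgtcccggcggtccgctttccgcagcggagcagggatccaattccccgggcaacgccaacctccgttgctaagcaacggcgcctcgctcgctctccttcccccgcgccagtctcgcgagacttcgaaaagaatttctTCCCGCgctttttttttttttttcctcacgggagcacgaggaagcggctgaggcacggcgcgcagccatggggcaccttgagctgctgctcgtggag
Smc3 (chr19:53600146-53600445, plus strand): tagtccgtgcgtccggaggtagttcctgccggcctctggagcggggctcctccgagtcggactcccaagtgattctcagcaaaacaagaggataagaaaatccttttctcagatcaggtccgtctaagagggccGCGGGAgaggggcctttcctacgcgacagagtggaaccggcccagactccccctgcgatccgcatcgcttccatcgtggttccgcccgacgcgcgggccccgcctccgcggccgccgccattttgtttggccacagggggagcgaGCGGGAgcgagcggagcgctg
The short E2F core was found in 6 of the 7 windows, all but that of Rad21l, against 20.0% of all 32851 windows of this length. It began at position -38 in Rec8, -2 in Stag3 and -47 in Smc1b, counted from the start site. Smc3 held it at -116 and 30. The long form was found in Stag1 and Smc1a, against 1.07% of all windows. Stag3 alone held an E-box, at -170, against 7.15% of windows, and no cohesin window held the STRA8 motif, against 7.94%. The Rad21l window had a GC content of 29.0% and 2 CpG dinucleotides, where the median window had 52.7% and 7. The 6 windows with the short E2F core had 58.3% to 73.7% and 18 to 43 CpG. The core itself holds a CpG, and the share over all windows is not matched for base content. A match is a description of these letters only.

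Per length, the meiosis-specific subunits were at both ends of the range in control testis. Levels are given as RPKM, the reads per kilobase of exon scaled to the gene reads of the library, computed from recovered reads with the SD over n = 2 libraries. In P16 controls Smc1b led with 101 ± 1.57, followed by Stag3 at 73.0 ± 0.729, Rad21 at 56.2 ± 0.784 and Smc3 at 42.6 ± 2.02. Rad21l at 23.7 ± 1.61 and Stag1 at 23.3 ± 0.575 overlapped. Stag2 stood at 14.2 ± 0.391, and Smc1a at 11.3 ± 0.348 overlapped with Rec8 at 10.4 ± 1.80, the lowest. Levels also differed between libraries of the first and second kit, which differ in sequencing run and control type too. In the 4 P16 Cre controls of the second kit, Stag3 at 76.3 ± 7.95, Rad21 at 69.1 ± 5.38 and Smc1b at 64.2 ± 6.77 (SD, n = 4) overlapped at the top, and Smc1a at 7.37 ± 0.471 was lowest. Levels were therefore compared within a kit only.

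**Figure D1:**
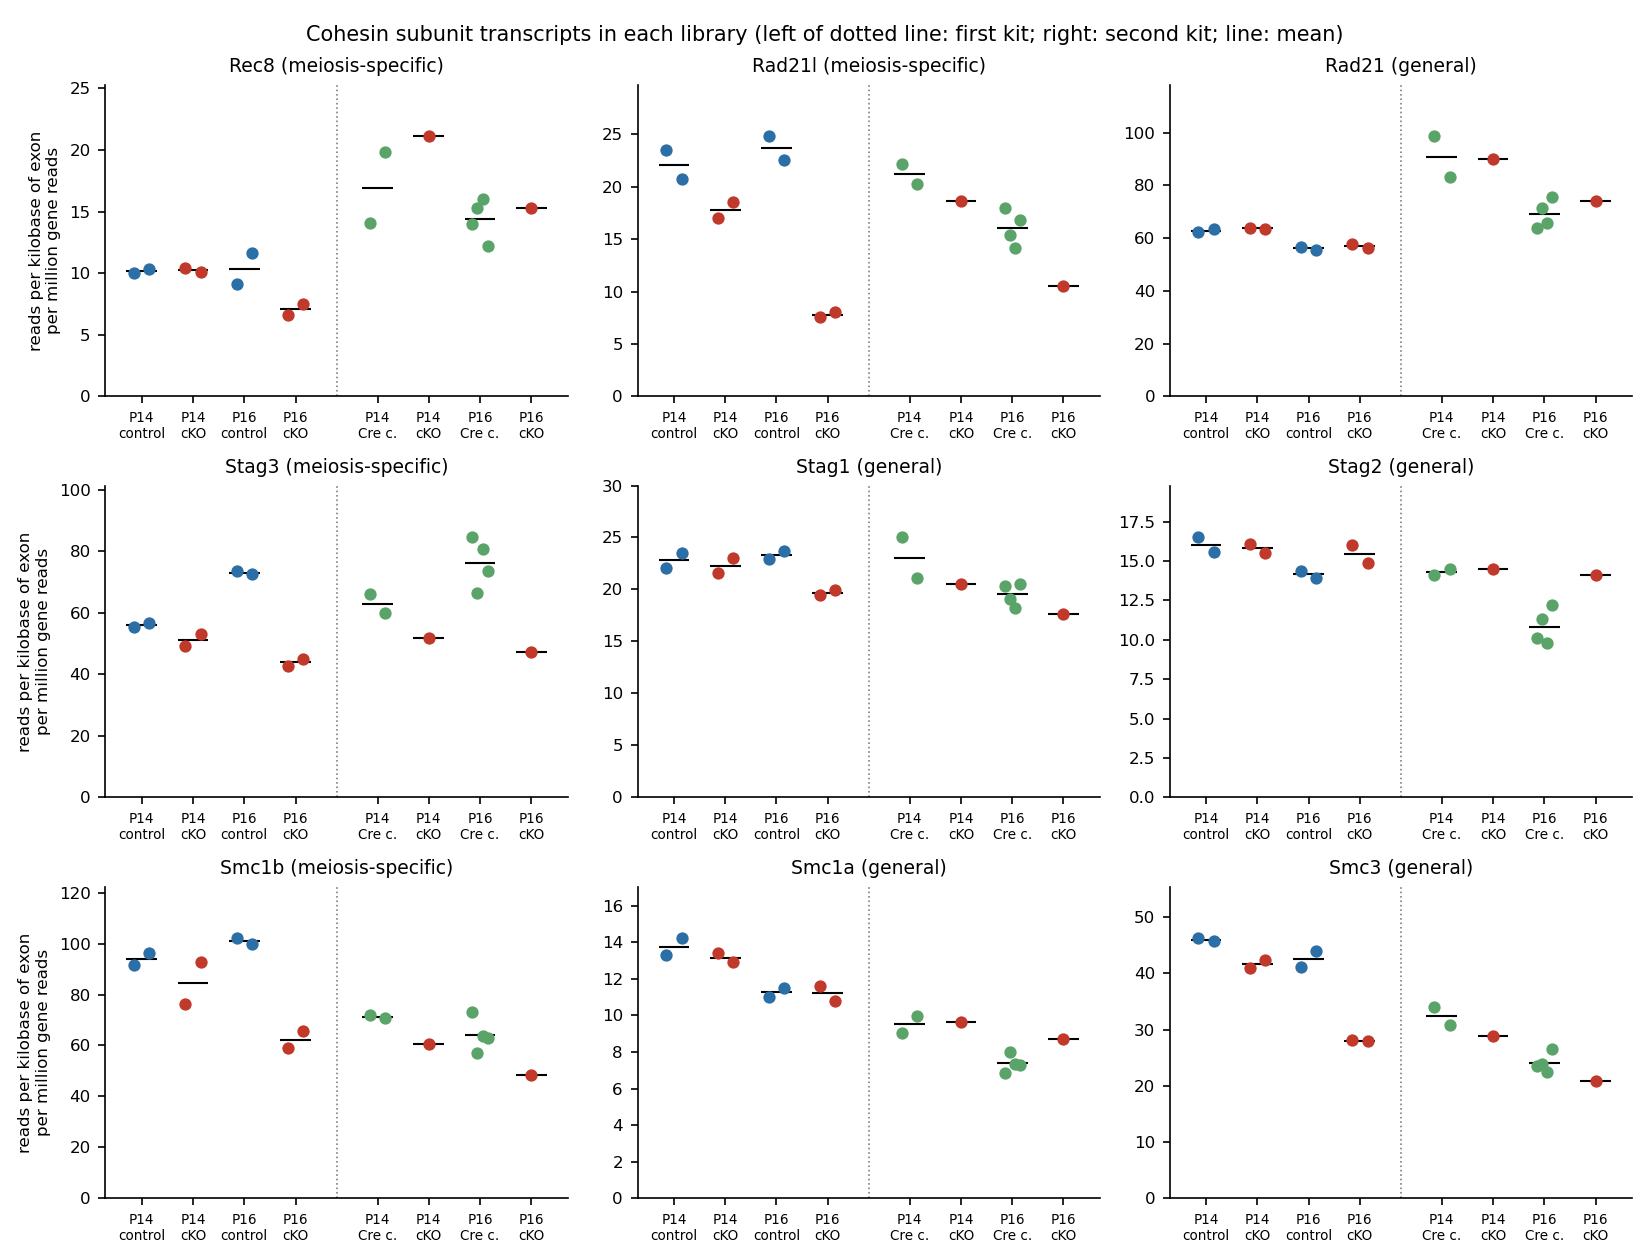
RPKM (y axis, from 0) of each cohesin gene in the 16 libraries, grouped on the x axis by stage and genotype, with first-kit libraries left of the dotted line and second-kit libraries right of it. Points are libraries and lines are group means. At P16 Rad21l, Stag3, Smc1b and Smc3 of cKO lie below their controls in both kits, while Rad21 of cKO overlaps with its controls.

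In cKO testis at P16, all 4 meiosis-specific subunits were lower than in the controls of the first kit, and the general kleisin Rad21 and the general SMC1 gene Smc1a showed no difference that passed the test. Of the 5 general subunits, Smc3 and Stag1 fell as well, and none was called higher. In all, 6 of the 9 genes were called, meaning a limma adjusted p under 0.05 over all genes tested, against 38.6% of the 17986 genes tested. All 6 were lower, against 19.9% of genes called lower. The median log2 change was -0.71 for the meiosis-specific and -0.00 for the general subunits, with a median of -0.000 over all genes. Values below are the deposited normalized read counts of the P16 table with 2 control and 2 cKO libraries, and changes are on the log2(value + 1) scale.

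Rad21l, the kleisin that loads early and is present until mid-prophase, had the largest change of the 9. Its normalized count was 1069 and 973.6 in the controls and 327.0 and 348.0 in cKO. Both cKO libraries lay far below both controls, at 33.0% of the control mean. The log2 change was -1.59 (SE 0.077, limma adjusted p 2.51e-08). Rec8, the kleisin kept at centromeres until the second meiotic division, stood at 692.0 and 888.5 in controls and at 508.5 and 571.7 in cKO. The groups did not overlap, although the controls differed from each other by more than the gap between the groups. Rec8 changed by -0.54 (SE 0.10, adjusted p 0.00137). Rad21, the general kleisin, held 6233 and 6125 in controls and 6389 and 6219 in cKO. Its groups overlapped, with a change of 0.03 (95% interval -0.06 to 0.12, adjusted p 0.613).

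Stag3, the single meiosis-specific SA protein, held 10949 and 10821 in controls and 6393 and 6724 in cKO. The cKO libraries were at 60.3% of the control mean, and the change was -0.73 (SE 0.041, adjusted p 9.76e-08). Stag1, a general SA protein, held 6995 and 7261 in controls against 6003 and 6128 in cKO. Its fall was much smaller, at -0.23 (SE 0.041, adjusted p 0.0008), with no overlap. Stag2, the other general SA protein, was at 3100 and 2988 in controls and 3455 and 3218 in cKO. Here the cKO libraries were the higher ones, by 0.13 (SE 0.049), and the adjusted p of 0.0507 missed the threshold. It passed with edgeR on the recovered reads (adjusted p 0.0421), and without cKO library 2 the change was 0.18 (adjusted p 0.00232). In GENCODE M21 the exons of Stag2 share 28 bases with Gm37564 on the opposite strand.

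Smc1b, the meiosis-specific SMC1 protein, held 10764 and 10556 in controls and 6243 and 6923 in cKO, a change of -0.70 (SE 0.049, adjusted p 6.84e-07). Smc1a, its general counterpart, held 1649 and 1727 against 1754 and 1620. The Smc1a groups overlapped, and the 95% interval of the change ran from -0.12 to 0.12. Smc3, the partner of both SMC1 proteins, held 5924 and 6350 in controls and 4065 and 4043 in cKO. At 66.1% of the control mean, its change of -0.60 (SE 0.045, adjusted p 1.35e-06) was close in size to those of Stag3 and Smc1b. The calls of Rec8 and Stag1 were lost without the trend in limma's variance model (adjusted p 0.102 and 0.0779), and no left-out library ended any of the 6 calls.

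**Figure D2:**
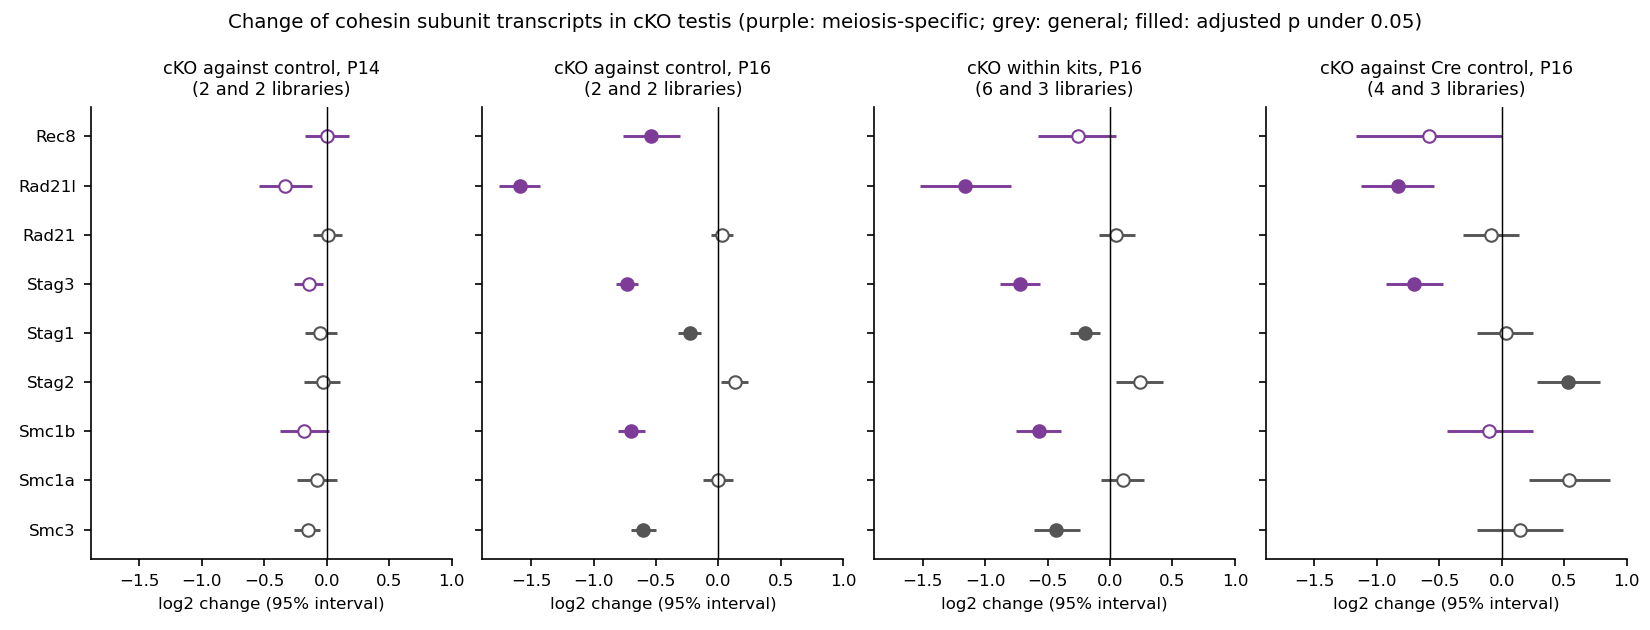
Log2 change in cKO (x axis) of each cohesin gene (y axis), with 95% intervals from limma, in 4 comparisons. Filled points have an adjusted p under 0.05, purple marks meiosis-specific and grey general subunits. At P16 against control, Rad21l (-1.59) lies furthest left, and Stag3, Smc1b and Smc3 lie near each other.

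The second kit offered a separate look at P16, with cKO library 3 set against 4 Cre controls. In that library Rad21l, Stag3, Smc1b, Stag1 and Smc3 lay below all 4 Cre controls, Stag2 and Smc1a lay above all 4, and Rec8 and Rad21 lay among them. Rad21l was at 341.5 against 475.5 to 591.9 in the Cre controls, with a median of 528.5. Stag3 was at 5266 against 7573 to 9576, with a median of 8843. Smc1b was at 3837 against 4567 to 5865, with a median of 5125. These are 64.3%, 60.5% and 74.2% of the Cre control means. Smc3 was at 2262, under the lowest Cre control of 2512. Rec8, at 876.2, sat inside the Cre control range of 708.0 to 949.3, unlike in the first kit. Against Cre control library 1, the only one of its sequencing run, library 3 differed by -0.79 for Rad21l, -0.86 for Stag3 and -0.61 for Smc1b on the log2 scale. With 1 cKO library in this kit these differences alone carry no test. The share of all genes lying outside the Cre controls in this way is not given here, so these positions are a description only.

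A model over all 9 P16 libraries, with kit as a term, fitted on log2 CPM, the recovered reads scaled to the library's reads on genes, gave the change within kits. It called 5 of the 9 genes, all lower, against 13.6% of 19887 genes called and 7.58% called lower. Rad21l fell by 1.16 on the log2 scale (SE 0.17, limma adjusted p 0.00357), Stag3 by 0.72 (SE 0.072, adjusted p 0.00105) and Smc1b by 0.57 (SE 0.084, adjusted p 0.00387). Those 3 calls held under the other scalings, filters, variance models and tools and without any 1 library. In the second kit alone the adjusted p of Smc1b was 0.082, with 1 cKO library in that kit. Smc3 changed by -0.43 (adjusted p 0.0106) and Stag1 by -0.20 (adjusted p 0.0345). Both calls were lost without the variance trend (adjusted p 0.0532 and 0.102), and that of Stag1 also with no filter (0.0605). Both were lost as well without some libraries. For Smc3 they were control library 1 (adjusted p 0.0502), control library 2 (0.0529) and cKO library 1 (0.0576). For Stag1 the adjusted p was 0.112 and 0.147 without control libraries 1 and 2, and 0.151, 0.105 and 0.0802 without cKO libraries 1, 2 and 3. Rec8 did not pass, at -0.26 (95% interval -0.58 to 0.05, adjusted p 0.239). Stag2 was at 0.24 (adjusted p 0.084), Smc1a at 0.10 and Rad21 at 0.05, none of them called. Stag2 passed only without Cre control library 4 (adjusted p 0.0479).

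Whether the cKO change differed between kits was tested with an interaction term, added after the values had been seen. It called none of the 9 genes, against 0.0352% of genes, and 1976 genes had an unadjusted p under 0.05. The difference was largest for Rad21l, at 0.97 (95% interval 0.57 to 1.37, adjusted p 0.119), since the second-kit change was -0.62 (SE 0.13). In that model the second-kit change was -0.71 for Stag3, -0.41 for Smc1b and -0.21 for Smc3. These rest on 1 cKO library, which is assumed to vary like the libraries of the other groups. For Rec8 it was 0.62 (95% interval 0.10 to 1.14, adjusted p 0.404), with a second-kit change of 0.08 (SE 0.17). For Stag3 the kits gave nearly the same value, with a difference of 0.02 (95% interval -0.31 to 0.35). Kit, control type and sequencing run differ together here and cannot be told apart.

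The deposited table with Cre controls at P16 mixes kits, since 2 of its 3 cKO libraries come from the first kit. There Rad21l (-0.83, SE 0.13, adjusted p 0.0367) and Stag3 (-0.70, SE 0.099, adjusted p 0.0367) were called lower and Stag2 (0.53, SE 0.11, adjusted p 0.0408) was called higher, against 9.07% of 19200 genes called. Smc1b was at -0.10 and Smc3 at 0.15, neither called. With kit as a covariate none of the 9 passed, and Smc3 turned to -0.23 (adjusted p 0.266). Leaving out any 1 Cre control, or cKO library 1 or 2, also left none called. Without any 1 of Cre control libraries 1 to 4 the adjusted p of Rad21l and Stag3 was 0.0846, 0.101, 0.133 and 0.072, and without cKO library 1 or 2 it was 0.191 and 0.174. That of Stag2 was 0.0869, 0.101, 0.133 and 0.072, and then 0.191 and 0.175. Without cKO library 3, when kit and genotype coincide, 6 of the 9 were called, along with 9427 genes in all. Quantile normalization of this table raised the number of genes called from 825 higher and 916 lower to 1795 higher and 1299 lower, and the median log2 change over all genes from -0.043 to 0.104.

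The make-up of each subunit class, taken per length within a library, shifted toward the general member in cKO at P16. Rec8 and Rad21l together made up 37.4% and 38.1% of kleisin transcripts in the first-kit controls and 19.7% and 21.6% in cKO. Rad21l alone went from 27.4% and 25.1% to 10.5% and 11.2%, while Rec8 was 10.0% and 13% in controls and 9.22% and 10.4% in cKO. Stag3 made up 66.4% and 65.9% of SA transcripts in controls and 54.6% and 56.3% in cKO. Smc1b made up 90.3% and 89.7% of SMC1 transcripts in controls and 83.5% and 85.9% in cKO. None of these control and cKO pairs overlapped except those of Rec8. The shares were not tested, and a share within a class depends on the other members. With 2 libraries a group, the lack of overlap is a description only. In the second kit, Stag3 made up 68.7% to 74.3% in the 4 Cre controls and 59.8% in cKO library 3. For Smc1b the values were 87.7% to 91.4% and 84.8%, and for the meiotic kleisins 27.8% to 33.4% and 25.9%, all with the cKO library lowest.

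**Figure D3:**
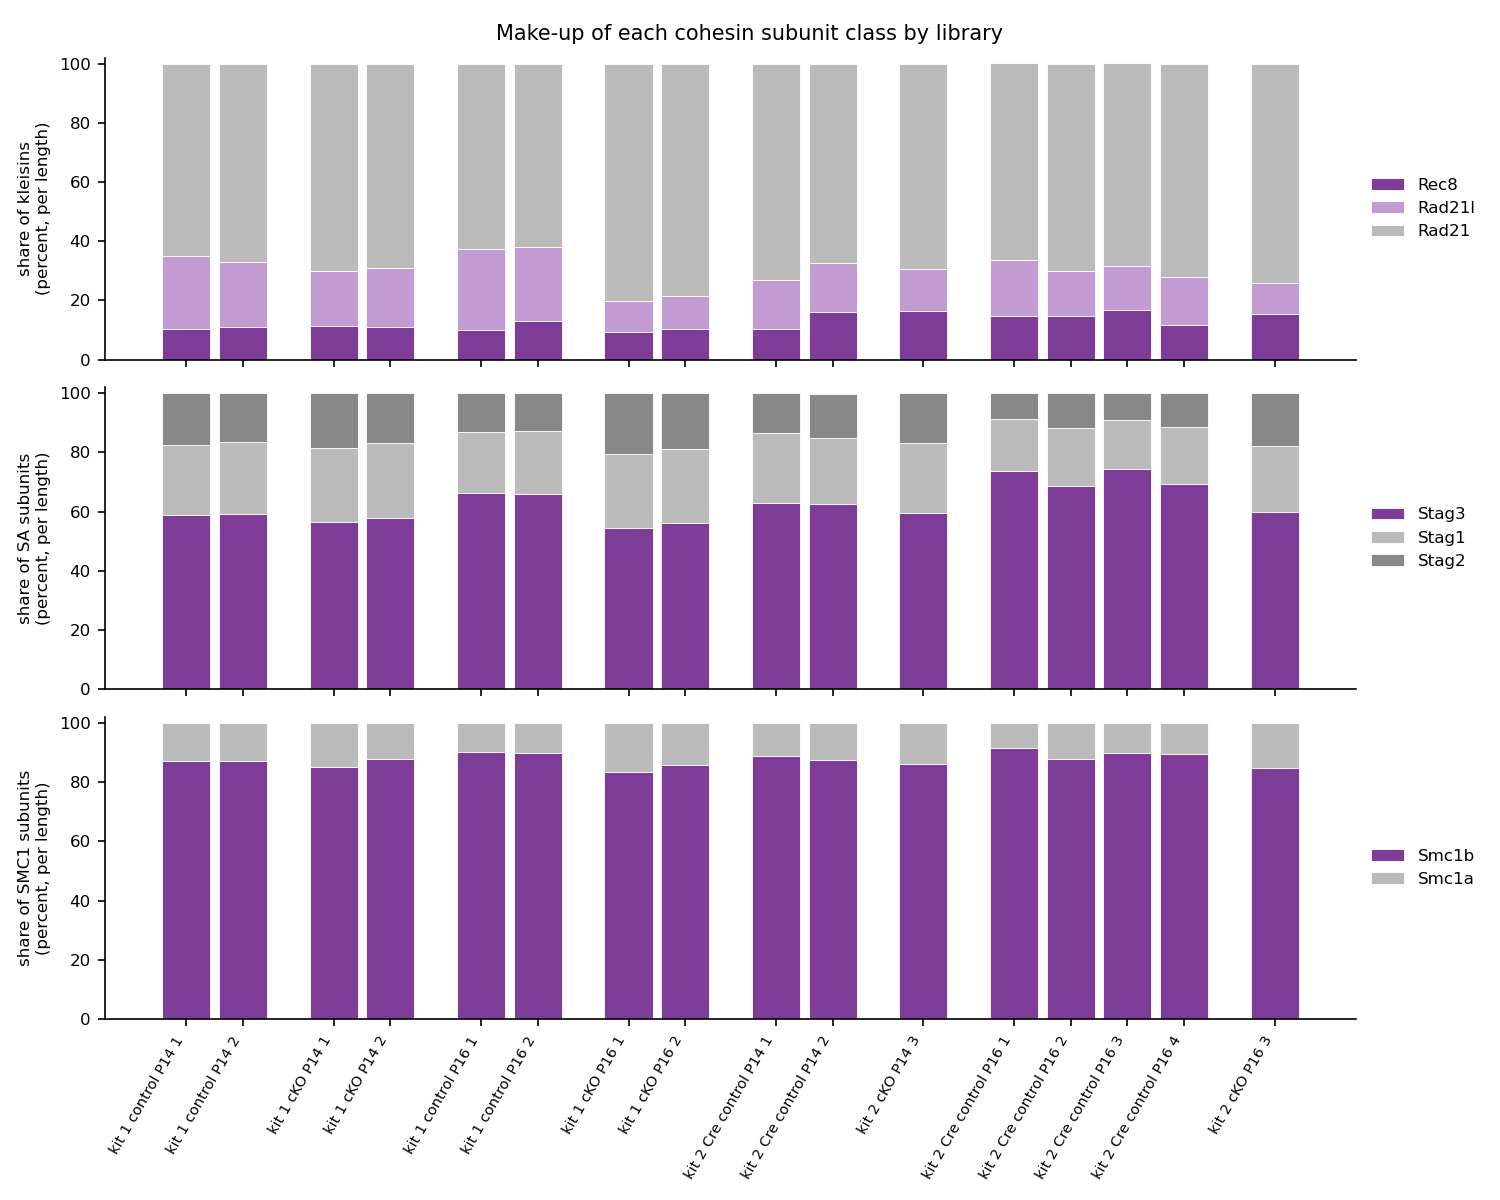
Share (y axis, percent, per length) of each gene within its class in each of the 16 libraries (x axis), with meiosis-specific members in purple. In P16 cKO libraries of the first kit the meiotic kleisins take 19.7% and 21.6%, the lowest of the 16 libraries.

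Ratios of read counts do not depend on how a library was scaled. From control to cKO at P16, the log2 ratio of Smc1b to Smc1a differed by -0.70 in the first kit and -0.63 in the second. For Stag3 against Stag1 plus Stag2 the differences were -0.62 and -0.71. For Rec8 plus Rad21l against Rad21 they were -1.08 and -0.24. In the second kit the cKO value of -2.32 lay inside the Cre control range of -2.33 to -1.93. Per length, which gives the shorter Rad21l more weight, the ratio of that library was 0.35, below the Cre controls at 0.385 to 0.503. The position of that library thus depends on the weighting by length. The summed kleisin level relative to Smc3 was higher in cKO. It was 2.20 and 2.04 in the P16 controls of the first kit, expressed as a ratio per length, and 2.56 and 2.57 in cKO. The kleisin sum itself was lower in cKO, at 72 and 71.9 RPKM against 90.6 and 89.8 in controls. Smc3 fell by a larger part, from 41.2 and 44 RPKM in controls to 28.1 and 28 in cKO.

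At P14, 2 days after the first tamoxifen dose, no cohesin gene was called in any comparison. Against control, limma called 0 of the 9, against 0.00579% of 17270 genes, where the only call was Ythdc2 (-1.60, adjusted p 0.0148) and 410 genes had an unadjusted p under 0.05. edgeR and DESeq2 on the recovered reads also called 0 of the 9. Rad21l was at 942.0 and 826.9 in controls and 683.6 and 720.5 in cKO, 79.4% of the control mean, with no overlap. The change of -0.33 had a 95% interval of -0.54 to -0.12 before adjustment and an adjusted p of 1. Stag3 held 7646 and 7823 against 6834 and 7165, Smc1b 8951 and 9392 against 7484 and 8810, and Smc3 6183 and 6099 against 5513 and 5519. These too did not overlap, with changes of -0.14, -0.18 and -0.15, none of which passed. The share of all genes without overlap between these libraries is not given here, so the lack of overlap is a description only. Rec8, at 711.6 and 726.1 in controls, lay between the cKO values of 742.8 and 698.5. Rad21, Stag1, Stag2 and Smc1a overlapped as well, with changes of 0.01, -0.05, -0.03 and -0.08.

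In the second kit at P14, cKO library 3 lay below both Cre controls for Rad21l (545.2 against 600.8 and 684.5), Stag3 (5236 against 6131 and 7029), Smc1b (4321 against 5098 and 5401), Stag1, Stag2 and Smc3. Rec8 was above both, at 1094 against 765.1 and 1039. How many of all genes lay outside both Cre controls is not given here, so these positions too are a description only. The model within kits gave -0.30 for Rad21l, -0.22 for Stag3, -0.22 for Smc1b and -0.18 for Smc3, each with an adjusted p of 0.993, and called 0 of the 9 against 0.00523% of 19122 genes, with 477 at an unadjusted p under 0.05. edgeR called 2 genes there and DESeq2 3, none of them a cohesin gene. The table with Cre controls called 0 of the 9 as well, against 0% of 18196 genes, and limma gave 705 genes an unadjusted p under 0.05 there. DESeq2 called 5 genes in that table and edgeR 0, none of them a cohesin gene.

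Between P14 and P16, 3 of the 9 genes were called in controls and 8 in cKO. In controls of the first kit Stag3 rose by 0.39 on the log2 CPM scale (SE 0.046, limma adjusted p 0.000443). The general genes Smc1a (-0.29, adjusted p 0.00951) and Rad21 (-0.16, adjusted p 0.0216) fell, against 20.0% of 18469 genes called. The Stag3 call held under every alternative, whereas that of Rad21 was lost without any 1 of the 4 control libraries (adjusted p 0.087 to 0.145). That of Smc1a was lost without P14 control library 2 (0.0808) or P16 control library 1 (0.101). Stag2 was at -0.18 (adjusted p 0.0512) and passed without P14 cKO library 1 or 2 (0.0279 and 0.0238). Rad21l (0.10), Smc1b (0.11) and Rec8 (0.02) were not called in controls.

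In cKO, 8 of the 9 genes were called lower at P16 than at P14, all but Stag2 (0.00), against 29.9% of genes called and 13.9% called lower. Rad21l fell by 1.15 (SE 0.087, adjusted p 3.8e-05), Smc3 by 0.54 (SE 0.045, adjusted p 6.09e-05), Rec8 by 0.51 (SE 0.11, adjusted p 0.0079) and Smc1b by 0.40 (SE 0.077, adjusted p 0.00386). Stag3 (-0.19), Smc1a (-0.19), Stag1 (-0.14) and Rad21 (-0.12) had smaller falls, and the count dropped to 4 without P16 cKO library 1 and to 5 without P16 cKO library 2 or either P16 control library. Without P16 cKO library 1, Rec8 (adjusted p 0.0583), Stag3 (0.0755), Rad21 (0.077) and Stag1 (0.157) were no longer called. Without P14 cKO library 1, Rad21 (0.119) and Smc1a (0.129) were lost, and without P14 cKO library 2, Stag1 (0.117).

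The cKO change itself differed between the stages for 4 of the 9 genes, against 7.50% of genes called and 4.55% called lower. The interaction was -1.25 for Rad21l (SE 0.12, adjusted p 0.000774), -0.57 for Stag3 (SE 0.065, adjusted p 0.00161), -0.51 for Smc1b (SE 0.11, adjusted p 0.0256) and -0.43 for Smc3 (SE 0.064, adjusted p 0.00622). Each says that the cKO value was further below control at P16 than at P14. Rec8 was at -0.53 (95% interval -0.89 to -0.17, adjusted p 0.0757), and Stag1, Stag2, Smc1a and Rad21 at -0.17, 0.18, 0.09 and 0.04, none called. The Smc1b call was lost without P14 control library 1 (0.0725), P14 control library 2 (0.0595), P16 control library 1 (0.103), P16 control library 2 (0.0911) or P16 cKO library 1 (0.0931). Rec8 passed without P16 control library 1 (-0.72, adjusted p 0.0405), and Stag1 without P14 cKO library 1 (-0.22, adjusted p 0.0499). Without the variance trend the calls of Stag3 (0.0635), Smc3 (0.0888) and Smc1b (0.147) were lost, and that of Rad21l held. With no filter the Smc1b call was lost as well (limma adjusted p 0.0587).

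**Figure D4:**
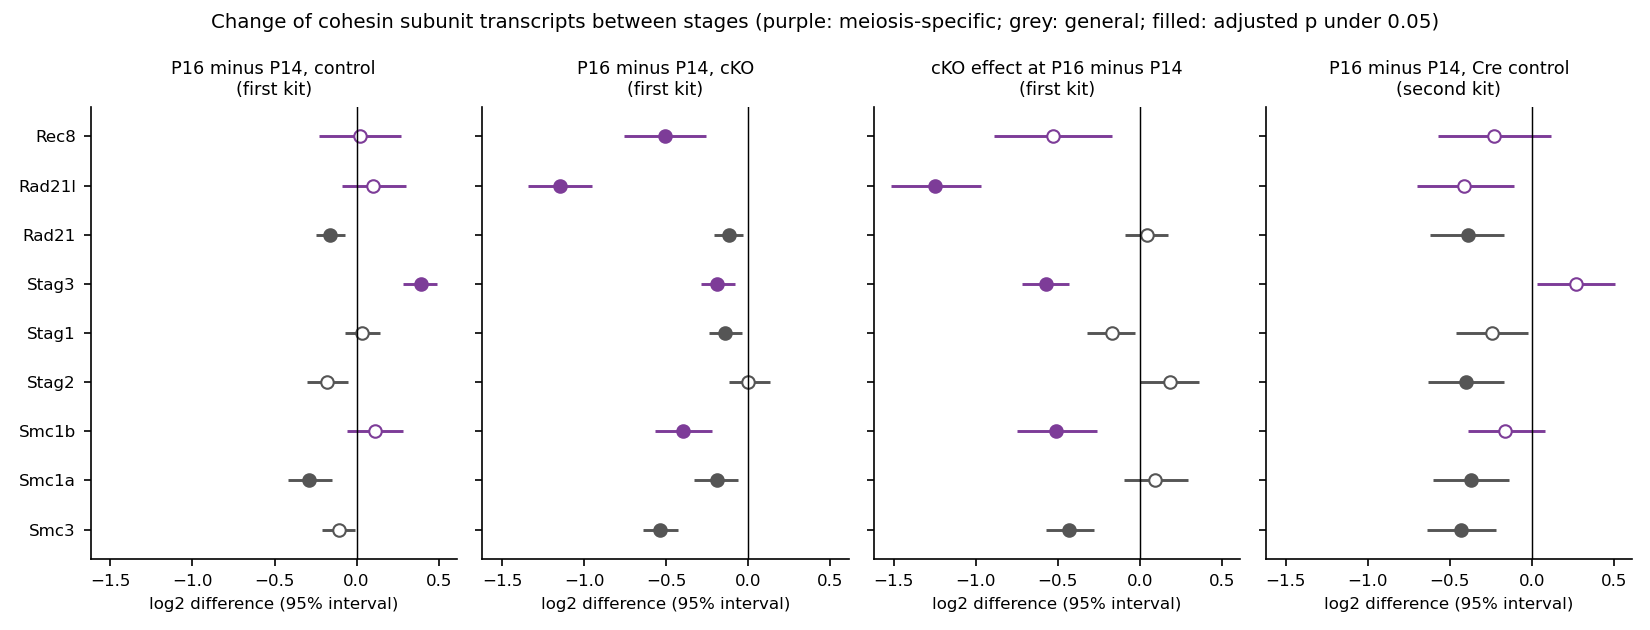
Log2 difference (x axis) between stages for each cohesin gene (y axis), with 95% intervals from limma, in controls, in cKO, as the difference of the cKO change between stages, and in Cre controls. Filled points have an adjusted p under 0.05. Rad21l lies at 0.10 in controls and at -1.15 in cKO.

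In Cre controls of the second kit the general genes Smc3 (-0.43, adjusted p 0.0158), Stag2 (-0.40, adjusted p 0.0303), Rad21 (-0.39, adjusted p 0.0305) and Smc1a (-0.37, adjusted p 0.0449) fell from P14 to P16, against 12% of 18642 genes called. No meiosis-specific gene was called there, with Stag3 at 0.27 (adjusted p 0.14) and Rad21l at -0.41 (adjusted p 0.074). None of the 4 calls remained without Cre control P14 library 1 (adjusted p 0.124 to 0.27) or without Cre control P16 library 3 (0.0639 to 0.134). Leaving out P16 library 1 or 2 left Smc3 alone called. Without P14 library 2, Stag2 (0.107) and Smc1a (0.183) were lost, and Smc1a was lost without P16 library 4 (0.0695) or P14 cKO library 3 (0.0578), which shares the fit. Sequencing run differed between most libraries of the stages.

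The cohesin cycle list held genes that load, release, acetylate or cut cohesin. It also held others, such as shugoshin, kinase and phosphatase subunit genes, Ctcf and Ctcfl. Of its 25 genes, 24 were tested against control at P16. Of these, 5 were called higher and 5 lower, with a median log2 change of -0.04. That is 10 of 24, against 38.6% of all genes called, so the list as a whole was near the background. The largest fall was in Ctcfl, a germline paralog of the insulator protein CTCF, from 389.7 and 447.1 in controls to 78.6 and 115.0 in cKO. Its change was -2.12 (SE 0.16, adjusted p 1.2e-06). Esco2, the acetyltransferase that locks cohesin on DNA during replication, fell by 1.05 (SE 0.053, adjusted p 3.52e-08), from 2749 and 2816 to 1292 and 1389. The mitotic checkpoint kinase gene Bub1 (-0.48), the Aurora kinase gene Aurkb (-0.44) and Cdca5 (-0.29), which encodes the cohesin protector sororin, fell less. The Cdca5 call was lost with DESeq2 (adjusted p 0.0725) and in limma with no filter (adjusted p 0.0522). It was also lost without control library 2 (change of -0.26) or cKO library 1 (-0.19).

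Wapl, which encodes the factor that opens the ring, rose by 0.25 (SE 0.042, adjusted p 0.000553), from 8992 and 9333 to 10635 and 11126. Ppp2r5e (0.33), a regulatory subunit of the phosphatase PP2A, Haspin (0.34), a histone kinase of centromeres, Pttg1 (0.33), which encodes securin, and Plk1 (0.27), a mitotic kinase, rose as well. The Plk1 call was lost without control library 1 (adjusted p 0.058). Without the variance trend, Wapl (adjusted p 0.0785), Haspin (0.0536), Pttg1 (0.0625), Plk1 (0.0639) and Cdca5 (0.116) were no longer called. The loader genes Nipbl (-0.04) and Mau2 (-0.08), the ring regulator Pds5b (-0.07) and the shugoshin gene Sgo1 (-0.05), picked after their values were seen, were not called. Within kits, 3 of 25 genes were called higher, namely Plk1 (0.47), Ppp2r5e (0.33) and Wapl (0.31), and 2 lower, namely Ctcfl (-1.35, adjusted p 0.014) and Esco2 (-0.62, adjusted p 0.0396). These 5 of 25 stand against 13.6% of all genes called. In the second kit alone, Esco2 of cKO library 3, at 1077, lay inside the Cre control range of 1002 to 1401. Ctcfl, at 139, lay below the Cre control range of 174.1 to 202. Pttg1, at 611.5, lay below its range of 647.7 to 827.3, unlike in the first kit. Plk1, Ppp2r5e and Wapl lay above their ranges, and Haspin, Bub1, Aurkb and Cdca5 lay within. Within kits, the calls of Plk1 and Wapl were lost without cKO library 3 (adjusted p 0.126 and 0.0535). Those of Ctcfl and Esco2 were lost without control library 1 (0.0609 and 0.146), control library 2 (0.0625 and 0.153) or cKO library 1 (0.0555 and 0.165), and that of Esco2 also without cKO library 2 (0.131). Without the variance trend, those of Ctcfl (0.0578), Esco2 (0.112) and Plk1 (0.05) were lost. Exons of Ctcfl share 171 bases with the antisense gene Ctcflos and those of Plk1 share 156 with Gm44985 on the other strand, and the counting strand is not given in the sources used here, although the library kit keeps the strand.

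Condensin and the SMC5/6 complex, which share the SMC architecture, served as a second list of 15 genes, all tested. At P16 against control, 2 were called higher and 7 lower, with a median of -0.02, against 38.6% of all genes called and 19.9% called lower. Smc2, the core subunit of both condensins, rose by 0.27 (SE 0.046, adjusted p 0.000589), while its partner Smc4 fell by 0.20 (SE 0.049, adjusted p 0.0064). The Smc4 call was lost without control library 1 (0.0588) or 2 (0.0608), and that of Ncapd2 without control library 1 (0.0513). Condensin II genes Ncapg2 (-0.54), Ncapd3 (-0.36) and Ncaph2 (-0.26) fell. Of the condensin I genes, Ncaph (0.35) rose and Ncapd2 (-0.21) fell. In the second kit at P16, Ncapg2 of cKO library 3, at 1939, lay above the Cre controls at 1545 to 1857, unlike in the first kit. Smc2 lay above its Cre controls as well, Smc4 and Ncapd2 lay below theirs, and Ncapd3, Ncaph2 and Ncaph lay within. Ncaph2 shares exonic bases with Sco2 and Tymp on the other strand, and Ncapd2 shares some with Scarna10 on its own strand. Without the variance trend, Smc2 (adjusted p 0.0674), Smc4 (0.16), Ncaph (0.127), Ncaph2 (0.0636) and Ncapd2 (0.097) were no longer called. Within kits only Smc2 was called (0.48, adjusted p 0.0126), and neither without cKO library 3 (0.27, adjusted p 0.125) nor without the trend (0.057).

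**Figure D5:**
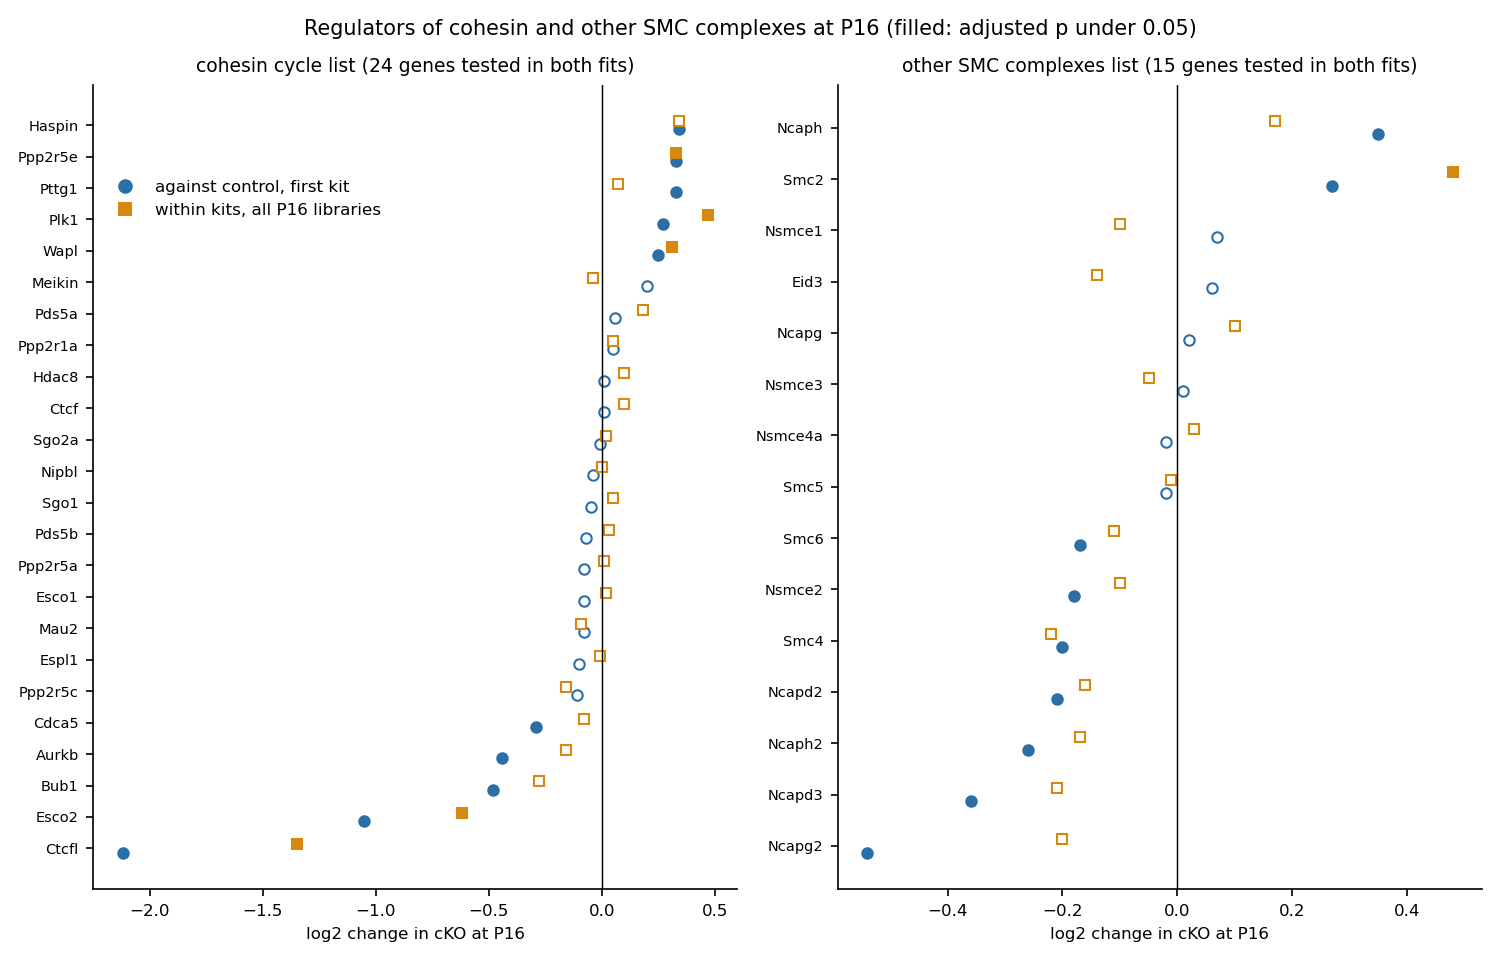
Log2 change in cKO at P16 (x axis) of the genes of the cohesin cycle list and of the other SMC complexes (y axis), against first-kit controls (circles) and within kits over all 9 P16 libraries (squares). Filled symbols have an adjusted p under 0.05. Ctcfl and Esco2 lie furthest left and are filled in both.

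Markers of several cell types also differed between control and cKO. Against control at P16, where 38.6% of all genes were called and 19.9% were called lower, 6 of 7 early meiotic prophase markers were called lower (median -0.36), with summed levels of 1727 to 1818 CPM in controls and 1347 to 1445 in cKO. Among them, in a choice made after seeing the values, Prdm9 changed by -1.63 and Dmc1 by -0.87, while Sycp3 changed by -0.36 and Hormad1 by -0.13. Of 7 spermatogonial markers, 6 were called lower (median -0.39), with sums of 1445 to 1447 CPM and 1167 to 1235 CPM, led by Stra8 at -1.10. Of 7 pachytene markers, 2 were higher and 1 lower, with sums of 859 to 873 CPM and 901 to 993 CPM. Of somatic markers, 5 of 5 of macrophages (sums of 45.1 to 45.5 CPM and 64.4 to 67.1 CPM) and 4 of 7 of Sertoli cells (3464 to 3673 CPM and 4140 to 4566 CPM) were called higher. Of the other lists, 2 of 5 tested Leydig, 1 of 4 peritubular myoid and the 1 tested spermatid marker were called higher, and none of 4 red blood cell markers was called. Red blood cell sums were 32.7 to 36.1 CPM in controls and 22.0 to 51.3 CPM in cKO. The part of these shifts in the cohesin values was not tested.

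In the second kit at P16 some marker sums went the same way and others did not. Sertoli cell markers summed to 5666 CPM in cKO library 3 and to 4396 to 5365 CPM in the Cre controls. Macrophage markers, at 72.3 CPM against 51.6 to 70.4 CPM, were higher as well. Early meiotic prophase markers, at 929 CPM, were at the lower end of the Cre control range of 929 to 1331 CPM. Spermatogonial markers, lower in the first kit, summed to 1102 CPM, above the Cre controls at 920 to 1095 CPM. Pachytene markers, at 617 CPM, lay within the range of 598 to 1201 CPM. Within kits, 4 of 7 early meiotic prophase and 0 of 7 spermatogonial markers were called lower, against 7.58% of all genes. At P14 against control no marker of any list was called.

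Genes whose profile over the 8 first-kit libraries was most like that of each meiosis-specific gene were ranked by Pearson's r among 12277 genes, as a description. The 8 libraries share a kit and fall into 4 groups by stage and genotype, so r also reflects differences between these groups. For Rad21l they were Lrig2 (0.998), Asf1b (0.998) and Fmnl3 (0.997), with r of 0.843, 0.614 and 0.881 over the 8 second-kit libraries. For Stag3 they were Eif3c (0.991), Ercc8 (0.990) and Zfp367 (0.987), and for Smc1b Eftud2 (0.991), Tti1 (0.991) and Nmd3 (0.989). In the second kit Ercc8 and Zfp367 gave 0.922 and 0.885 with Stag3 and Nmd3 gave 0.879 with Smc1b, while Eif3c gave 0.420 and Tti1 0.496. For Rec8 they were Foxr1 (0.991), Commd9 (0.980) and Skil (0.978), with second-kit values of 0.417, -0.104 and 0.632. Among the cohesin genes themselves, the highest r in the first kit was 0.965, between Smc1b and the general gene Stag1, with 0.723 in the second. Rad21l had r of 0.963 with Smc3, 0.954 with Smc1b and 0.918 with Stag1 in the first kit, and 0.887, 0.848 and 0.876 in the second. With Stag3, Rad21l had 0.809 in the first kit and 0.297 in the second. Rec8 and Rad21l had r of 0.859 in the first kit and 0.127 in the second.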

How the data were processed

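Total RNA of mouse testis was depleted of ribosomal RNA and sequenced from directional libraries, per the labels' protocols. The deposited values are a signal, namely gene counts that the authors divided by a size factor within each of 4 tables, as the values show; the submitters' processing notes name Trim Galore, STAR, HTSeq, DESeq2 and the GRCm39 (mm39) build, with no versions. In the 20 columns, 100.0% of values above 0 came out as whole reads (within 0.01 of a read) once divided by what 1 read is worth, so reads were recovered. With 10 or more in at least 2 libraries as the filter, limma 3.58.1 (R 4.3.3, with a variance trend) was fitted to log2(value + 1) within a table. Comparisons across tables were fitted on log2 CPM of recovered reads (TMM scaling, prior count 1). Benjamini-Hochberg adjustment covered all genes tested, with 0.05 as the threshold. Alternatives were the pseudocount, scaling, filter, variance model, a replicate block, a kit term, each left-out library, and edgeR 4.0.16 and DESeq2 1.42.0 on the recovered reads. edgeR called 6983 genes in cKO against control at P16, among them 7 cohesin genes, and DESeq2 called 4641 and 6. The scripts were tested on simulated data. GENCODE M21 served for gene names (52081 of 55414 genes), exon lengths and overlaps only. Named are the 9 cohesin genes, Ythdc2, of the 2 gene lists the called genes that rose most and fell most at P16 (at most 5 in each direction, against control and within kits), and the 3 genes most like each meiosis-specific gene, taken among genes with a mean of at least 100 reads. Members and lists, the regulator and marker lists included, were chosen with earlier results of these data known.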

Additional observations from a re-analysis of the deposited data

Results flagged for a closer look

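In the first kit, the cKO change differed between P16 and P14 for 4 cohesin genes and for Ythdc2, by the interaction term of a limma fit over 8 libraries. The difference in log2 change was -1.25 for Rad21l (adjusted p 0.000774), -0.57 for Stag3 (0.00161), -0.51 for Smc1b (0.0256) and -0.43 for Smc3 (0.00622). For Ythdc2 itself it was -0.72 (0.00815). In the 4 Cre control libraries at P16, a Dixon test for 1 outlying library flagged none of the 10 genes tested, the 9 cohesin genes and Ythdc2. With 4 libraries per gene it flags only an extreme gap, so the lack of a flag does not show that the libraries are alike. Ythdc2 was at 2633 in Cre control library 3 and at 1711, 1392 and 1597 in libraries 1, 2 and 4.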

How the results depend on the processing

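Depth limited no cohesin gene, the lowest holding 258 reads, but 2 libraries a group limit the first-kit tests and 1 cKO library a stage limits those of the second kit. Where a left-out library leaves 1 in a group, that library is assumed to vary like the others. Over the cohesin genes and all comparisons, 1151 of 1314 values under alternatives kept their side of the threshold without a marked change of direction. Of the others, 113 lost a call, 33 gained one and 17 were reversed. The 1314 include genes that were not called to begin with, so the 1151 do not say how often a call held. Small changes of sign are included in the 1151. An example is the Rec8 change in cKO against control at P14, which ranged from -0.04 to 0.05.

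For cKO against control at P14, the 1 gene called became 0 with no filter or without the variance trend, 6 with DESeq2 and 5 with the replicate block, and 0 to 11 with a library left out. At P16 against control, 6939 genes became 1806 without the trend and 4591 to 7045 with a library left out, 8200 genes and 7 cohesin genes were called with the block, and Smc1a turned to 0.06 without cKO library 2. For Cre controls at P14, 0 genes became 5 with DESeq2, 6966 genes and 5 cohesin genes with the replicate block (which absorbs cKO library 3, so that genotype coincides with kit), and 0 to 6256 genes and 0 to 4 cohesin genes with a library left out. There the kit covariate turned Rec8 to 0.29, Smc1b to -0.28, Stag2 and Smc1a to -0.02 and Smc3 to -0.21. For Cre controls at P16, 1741 genes became 3277 with a pseudocount of 10, 3094 with quantile normalization, 917 with no filter, 32 without the trend, 4188 with DESeq2, 1 with the kit covariate, 0 with the block and 0 to 9427 with a library left out. The 3 cohesin genes became 0 without the trend, with the kit covariate and with the block, and 0 to 6 with a library left out. The kit covariate turned Rec8 and Rad21 to 0.07, Stag1 to -0.17 and Smc3 to -0.23, and Smc1b ranged from -0.22 to 0.07 over left-out libraries, the last without cKO library 3.

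Within kits at P14, 1 gene became 0 without the trend, 2 with edgeR and 3 with DESeq2, stayed at 1 with each library left out, and Rec8 ranged from -0.00, without cKO library 3, to 0.19. Within kits at P16, 2710 genes became 1026 and the 5 cohesin genes 3 without the trend, with ranges of 669 to 3287 and 3 to 6 over left-out libraries, and Rec8 was at 0.08 in the second kit alone.

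Between stages in controls, 3703 genes became 2164 and 3 cohesin genes 1 without the trend, with ranges of 1661 to 4701 and 1 to 4, and Rec8 ranged from -0.16, without P16 library 2, to 0.21. In cKO, 8 cohesin genes became 3 without the trend and 5 with DESeq2, with ranges of 3450 to 5418 genes and 4 to 8 cohesin genes, and Stag2 ranged from -0.06, without P14 library 2 or P16 library 1, to 0.04. The interaction count of 1385 became 727 with no filter, 136 without the trend and 2242 with the block, its 4 cohesin genes became 1 without the trend, and the ranges were 284 to 3216 and 3 to 5. In Cre controls, 2232 genes became 49 with no filter and 799 without the trend, both with 0 of the 4 cohesin genes, the ranges were 685 to 2762 and 0 to 4, and Rec8 ranged from -0.46 to 0.02, the last without P14 library 2. Per length, the Stag3 ratio at P14 in the second kit moved from -0.17 to -0.19 and the kleisin ratio at P16 in the first kit from -1.08 to -1.22. Apart from left-out libraries, the cause of these shifts was not tested.

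The labels do not say what a shared replicate number marks, and deviations of same-numbered control and cKO libraries had r of 0.203 at P14 and 0.0798 at P16, so the block result is given here alone.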
